A study of Mus musculus with 6 samples.

Results

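The peptide-preferring polypeptide GalNAc-transferases are the enzymes that place the first sugar of mucin-type O-glycans on bare peptide. They were followed in MLE-15, an epithelial line from mouse lung that carries the large T antigen of SV40. The genes were Galnt1, Galnt2, Galnt3, Galnt5, Galnt6, Galnt11, Galnt13, Galnt14, Galnt15 and Galnt16, picked by name, with earlier results of these data known. All 10 were found among the 909 named genes of the array, each with 1 probe set. The groups were 3 arrays of cells given 10 nM PMA (phorbol 12-myristate 13-acetate, an activator of protein kinase C) for 24 h and 3 arrays of control cells. The dose and time come from the series' design text, and both groups are the same cell line. The labels number the arrays 1, 2 and 3 in each group without saying what a number stands for, and only the titles of numbers 2 and 3 carry a letter, A or B. Since the labels do not state whether replicates were separate cultures, the p-values cover the spread between these arrays, which may be technical.

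Polypeptide GalNAc-transferases sit in the Golgi and move N-acetylgalactosamine from UDP-GalNAc to serine or threonine. This makes the Tn antigen, which core enzymes then lengthen and sialyltransferases cap. The peptide-preferring members act on unmodified peptide, whereas others favour peptide that already carries GalNAc and fill in dense clusters. Airway mucins are among the most heavily O-glycosylated proteins of the lung, and the series asked whether glycosyltransferases and mucins are expressed in airway cells and are induced by PMA.

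The upstream sequences of 3 members are shown. Phorbol esters are known to act on genes through AP-1 sites, and of these 3 only Galnt15 held an AP-1 match. Galnt3 and Galnt15 were among the members that differed most between arrays, and Galnt11 held the only match to a cyclic AMP response element. Each run holds the 250 bases before an annotated RefSeq start of build GRCm38.p6, 5′ to 3′ on the gene's strand. Capitals mark a GC box (GGGCGG), an AP-1 site (TGANTCA) or a cyclic AMP response element (TGACGTCA), each searched on both strands, and none of the marked matches overlaps another. The Galnt3 window is chr2:66124794-66125043 on the minus strand, the Galnt15 window is chr14:32028853-32029102 on the plus strand, and the window of the first Galnt11 start is chr5:25222622-25222871 on the plus strand.
Galnt3: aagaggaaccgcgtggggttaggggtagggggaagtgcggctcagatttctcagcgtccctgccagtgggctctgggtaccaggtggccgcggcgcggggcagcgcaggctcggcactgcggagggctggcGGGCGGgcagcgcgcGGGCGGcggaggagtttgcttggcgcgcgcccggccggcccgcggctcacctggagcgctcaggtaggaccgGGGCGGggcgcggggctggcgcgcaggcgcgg
Galnt15: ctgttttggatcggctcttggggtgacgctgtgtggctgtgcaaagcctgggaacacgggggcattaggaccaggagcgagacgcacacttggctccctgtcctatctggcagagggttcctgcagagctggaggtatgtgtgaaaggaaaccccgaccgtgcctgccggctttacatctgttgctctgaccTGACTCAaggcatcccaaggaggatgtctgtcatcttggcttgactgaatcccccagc
Galnt11: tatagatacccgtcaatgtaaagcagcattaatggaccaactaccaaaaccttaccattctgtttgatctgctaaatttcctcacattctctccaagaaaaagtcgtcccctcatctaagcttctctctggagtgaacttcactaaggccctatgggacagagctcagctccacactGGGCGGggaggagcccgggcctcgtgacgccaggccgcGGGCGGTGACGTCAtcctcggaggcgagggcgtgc
Galnt3 held 3 GC boxes, and its window was 76.8% G or C, against a median of 52.4% over all 32851 windows of the same length. Galnt15 held the letters TGACTCA from base -58 to base -52 before its start and no GC box. Galnt11 held 2 GC boxes and, beside the nearer of them, TGACGTCA from base -29 to base -22. The search covered 12 windows of 8 members, with none of Galnt1 or Galnt2. For members, windows on the chromosome of Galnt1 were left out, a filter not applied to the shares over all windows. An AP-1 match stood in 2 of the 12, those of Galnt15 and of the second Galnt16 start, and TGACGTCA in 1. A GC box stood in 5 of the 12 (Galnt3, Galnt13, Galnt14 and the first starts of Galnt6 and Galnt11), and TATAAA in 0. Over all windows the shares were 6.75% for TGANTCA, 32.7% for GGGCGG, 1.55% for TGACGTCA and 12.4% for TATAAA. These matches describe the letters of the windows only.

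Values are RMA levels on the log2 scale. Array medians lay between 5.64 and 5.71, and lower quartiles between 4.32 and 4.43. The table holds no background probe sets, so no gene could be called present or absent, and levels of different genes are not ranked here. Galnt3, Galnt5 and Galnt13 had means below the lower quartile of every array. The probe set of Galnt13 carries the suffix s, which marks probes that can bind several transcripts. Of 13 lung epithelial markers only Sftpd and Sftpa1, both surfactant proteins, were measured. Sftpd stood between the lower quartile and the median, and Sftpa1 stood below every lower quartile, so the labelled cell type could be checked on little. In bulk RNA, fewer cells of a type and less RNA per cell cannot be told apart.

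**Figure D1:**
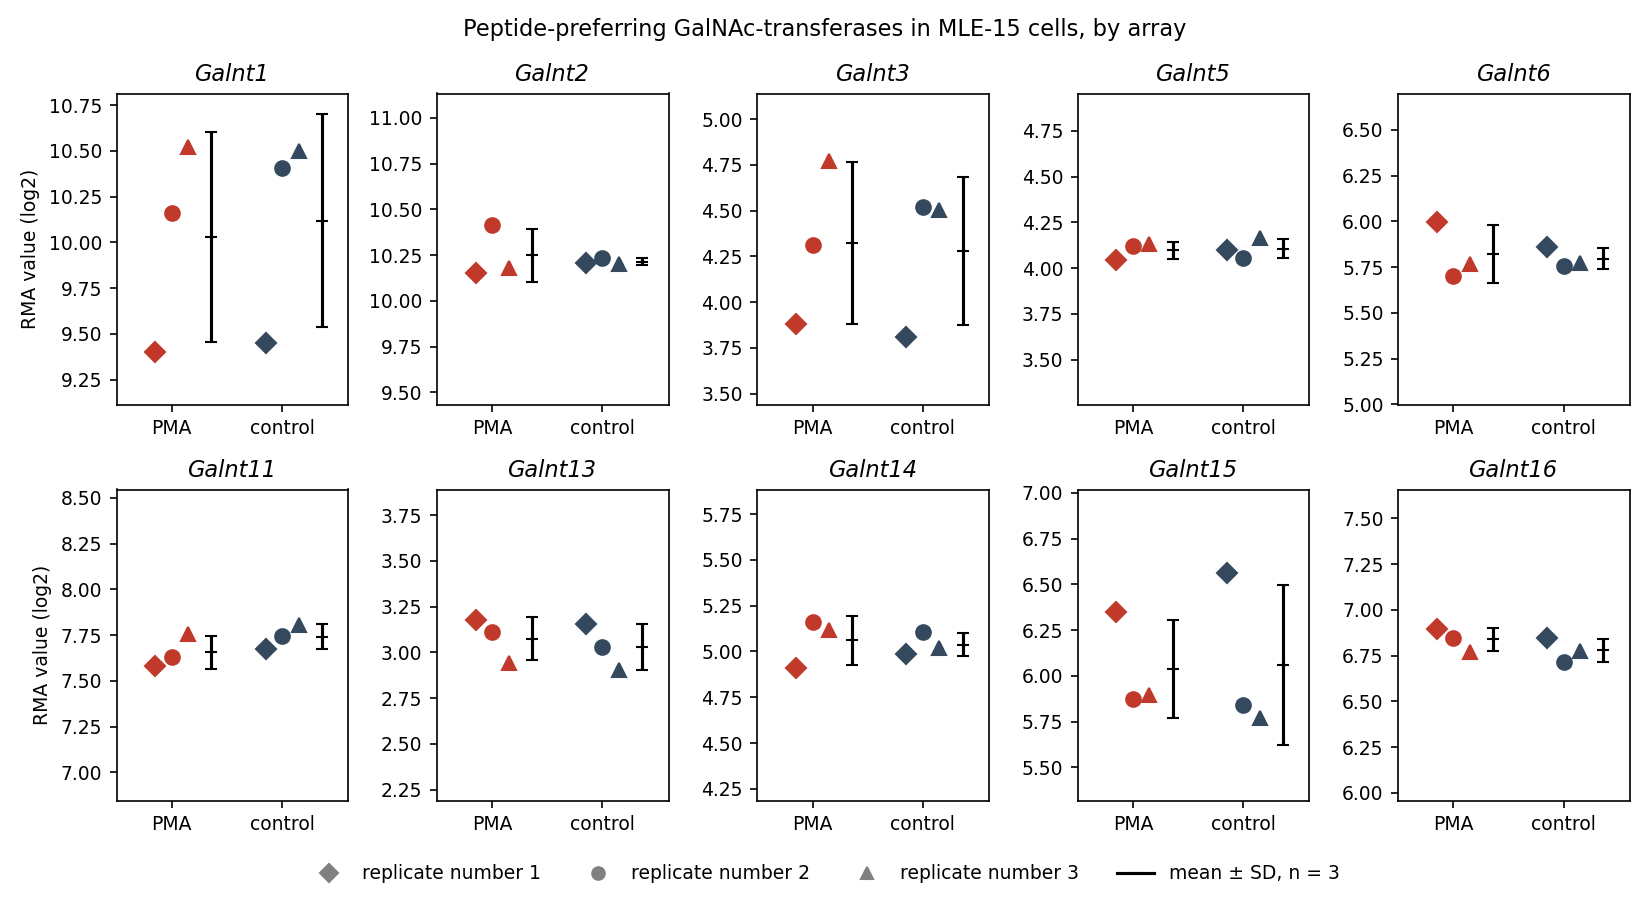
RMA values (log2, y axis, each panel spanning the same number of units) of the 10 genes in PMA (left) and control (right) arrays, with the symbol giving the replicate number and bars the mean ± SD of 3 arrays. PMA and control arrays overlap in every panel, and the number 1 arrays stand below the others for Galnt1 and Galnt3 and above them for Galnt15.

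The first question was whether PMA changed the enzymes that start O-glycans. No member passed the test, and the mean differences were small, from a fall of 0.089 log2 units for Galnt1 to 0.059 for Galnt16. Of the 10 genes, 6 had a higher and 4 a lower mean in PMA than in control arrays, with a median difference of 0.025, against 0.0033 over all 1246 probe sets. By limma with Benjamini-Hochberg adjustment over all probe sets, 0 of the 10 passed at 0.05 and 0 had an unadjusted p under 0.05. The background share called was 0% of all probe sets after adjustment and 0.321% before it. With the replicate number as a block the member counts were again 0 and 0, against 0% and 3.37% of all probe sets. PMA and control values did not overlap for 0 of the 10 members, against 3.37% of all probe sets.

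Galnt1, a broadly expressed initiating enzyme, had 9.40, 10.16 and 10.52 in PMA arrays 1, 2 and 3, against 9.45, 10.41 and 10.50 in control arrays 1, 2 and 3. The groups covered almost the same range, and the low array was number 1 in both. The means were 10.03 ± 0.57 in PMA and 10.12 ± 0.58 in control arrays (SD, n = 3 each), a difference of -0.089 log2 units (SE 0.41; limma adjusted p = 0.999). With the block the SE was 0.074 and the 95% interval ran from -0.26 to 0.080.

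Galnt2, the other broadly expressed member, known for acting on proteins of lipid metabolism, had 10.15, 10.42 and 10.18 in PMA arrays, against 10.21, 10.23 and 10.20 in control arrays. The control arrays lay close together, and PMA array 2 stood above them. On average PMA was 0.034 log2 units above control (SE 0.088), with -0.060, 0.18 and -0.020 in numbers 1, 2 and 3.

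Galnt3, whose product protects the phosphate hormone FGF23 from cleavage, had 3.88, 4.31 and 4.77 in PMA arrays, against 3.81, 4.52 and 4.50 in control arrays. Number 1 was again the low array in both groups, and PMA arrays 2 and 3 lay on either side of their controls. The difference was 0.043 log2 units (SE 0.30), with numbers 1, 2 and 3 at 0.071, -0.21 and 0.26. Galnt6, a close relative of Galnt3 known in human tumours, had 5.997, 5.70 and 5.77 in PMA arrays, against 5.86, 5.75 and 5.77 in control arrays, a difference of 0.026 (SE 0.096).

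Galnt15, which held the AP-1 match shown above, had 6.35, 5.87 and 5.89 in PMA arrays, against 6.56, 5.84 and 5.77 in control arrays. Number 1 was the high array in both groups. The mean difference was -0.021 log2 units (SE 0.26), and the numbers gave -0.22, 0.030 and 0.12, so number 1 differed in sign from the others. Galnt16, the other gene with an AP-1 match, had 6.90, 6.84 and 6.77 in PMA arrays, against 6.84, 6.72 and 6.77 in control arrays, a difference of 0.059 (SE 0.067). Neither passed the test, with an adjusted p = 0.999 by limma for each.

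Galnt11, which glycosylates receptors of the LDL receptor family, had 7.58, 7.63 and 7.76 in PMA arrays, against 7.67, 7.74 and 7.81 in control arrays. It was lower with PMA in all 3 numbers, by -0.088, -0.11 and -0.051, with a mean of -0.084 (SE 0.075; unadjusted p = 0.308 by limma). Galnt13, a mainly neural relative of Galnt1, had 3.17, 3.11 and 2.94 in PMA arrays, against 3.15, 3.03 and 2.90 in control arrays. It was higher with PMA in all 3 numbers, by 0.022, 0.078 and 0.038. These 2 were the only members with the same sign in all 3 numbers, 2 of 10, against 23.1% of all probe sets.

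Galnt14, which in human cells modifies death receptors, had 4.91, 5.16 and 5.12 in PMA arrays, against 4.99, 5.11 and 5.02 in control arrays, a difference of 0.024 (SE 0.089). Galnt5 had 4.04, 4.12 and 4.13 in PMA arrays, against 4.10, 4.06 and 4.16 in control arrays, a difference of -0.0099 (SE 0.062). All 6 arrays of Galnt5 lay within 0.121 log2 units, the narrowest range of the 10 genes.

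**Figure D2:**
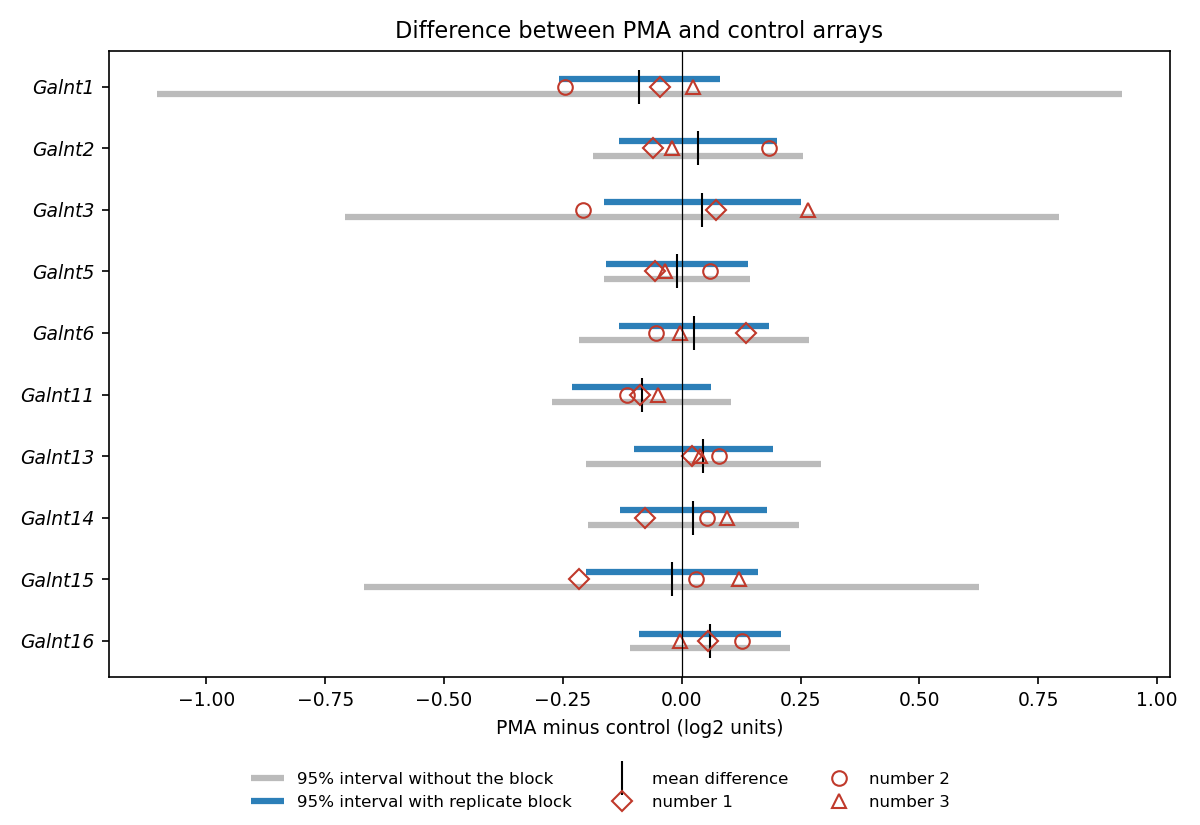
PMA minus control (log2 units, x axis) for each gene, as the difference within replicate numbers 1, 2 and 3 (open symbols), the mean (vertical tick) and its 95% interval without (grey) and with (blue) the replicate number as a block. Every interval spans 0, and with the block no interval reaches beyond 0.26 units from 0.

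The size of change the arrays could exclude differed between the fits. With the replicate number as a block, the 95% intervals of all 10 members lay within 0.26 log2 units of 0, and the bound farthest from no change was the lower bound of Galnt1, at 0.836-fold. Without the block they reached from 0.466-fold to 1.90-fold for Galnt1, from 0.612-fold to 1.73-fold for Galnt3 and from 0.629-fold to 1.54-fold for Galnt15. These 3 genes are the ones in which number 1 stood farthest from the other arrays.

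The second comparison set the number 1 arrays against those of numbers 2 and 3, with PMA as a term. The distance of number 1 from the rest was known beforehand. The fit counted the 2 arrays of number 1 as independent. If same-numbered arrays belong together, number 1 is a single unit. The p-values and intervals below then do not cover the spread between such units. Galnt1 and Galnt3 were lower and Galnt15 was higher in number 1, and the other 7 members did not pass. In all, 3 of the 10 passed after Benjamini-Hochberg adjustment in limma, 1 higher and 2 lower, while 41.7% of all 1246 probe sets passed, 27.5% higher and 14.1% lower. The share among the members, 30%, was thus not above the background, and their median absolute difference was 0.160 log2 units, against 0.169 over all probe sets. With sign, the median difference over all probe sets was 0.079, with 816 above 0 and 430 below. For the members it was -0.062, with 4 above 0 and 6 below.

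Galnt1 had a mean of 9.43 over the 2 arrays of number 1, against 10.40 over the 4 others. It ran from 9.40 to 9.45 in number 1 and from 10.16 to 10.52 in numbers 2 and 3, so the ranges were clearly apart. The difference was -0.97 log2 units (SE 0.097; adjusted p = 1.48e-05 by limma), a fold of 0.510 with a 95% interval of 0.438 to 0.593. It was -0.94 in PMA arrays alone and -1.01 in control arrays alone, and 9.79% of all probe sets had a larger absolute difference.

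Galnt3 averaged 3.85 in number 1 and 4.53 in numbers 2 and 3. The difference was -0.68 log2 units (SE 0.11; adjusted p = 4.66e-04 by limma), at -0.66 in PMA arrays and -0.70 in control arrays. The highest number 1 array, at 3.88, stood below the lowest of the others, at 4.31, though all these levels are near or under the lower quartile of the arrays.

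Galnt15 averaged 6.46 in number 1 and 5.85 in numbers 2 and 3. The difference was 0.61 log2 units (SE 0.081; adjusted p = 1.08e-04 by limma), a fold of 1.53 with an interval of 1.35 to 1.73. It was 0.47 in PMA arrays and 0.76 in control arrays. The number 1 arrays stood at 6.35 and 6.56, and the 4 arrays of numbers 2 and 3 lay between 5.77 and 5.89.

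The rest differed less. Galnt6 averaged 5.93 in number 1 and 5.75 in numbers 2 and 3, a difference of 0.18 (SE 0.071; adjusted p = 0.0649 by limma). Galnt13 differed by 0.17 (SE 0.076; adjusted p = 0.108) and Galnt14 by -0.15 (SE 0.071; adjusted p = 0.114). For these 3 the number 1 arrays also lay wholly outside the range of the others without passing the test. Such a gap was seen in 6 of the 10 members and in 55.9% of all probe sets. Galnt11 differed by -0.11, Galnt16 by 0.094, Galnt2 by -0.078 and Galnt5 by -0.046, and their ranges overlapped. After a repeated quantile normalization 5 members passed by limma, Galnt14 (adjusted p = 0.0442) and Galnt16 (adjusted p = 0.0460) being the additional ones.

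**Figure D3:**
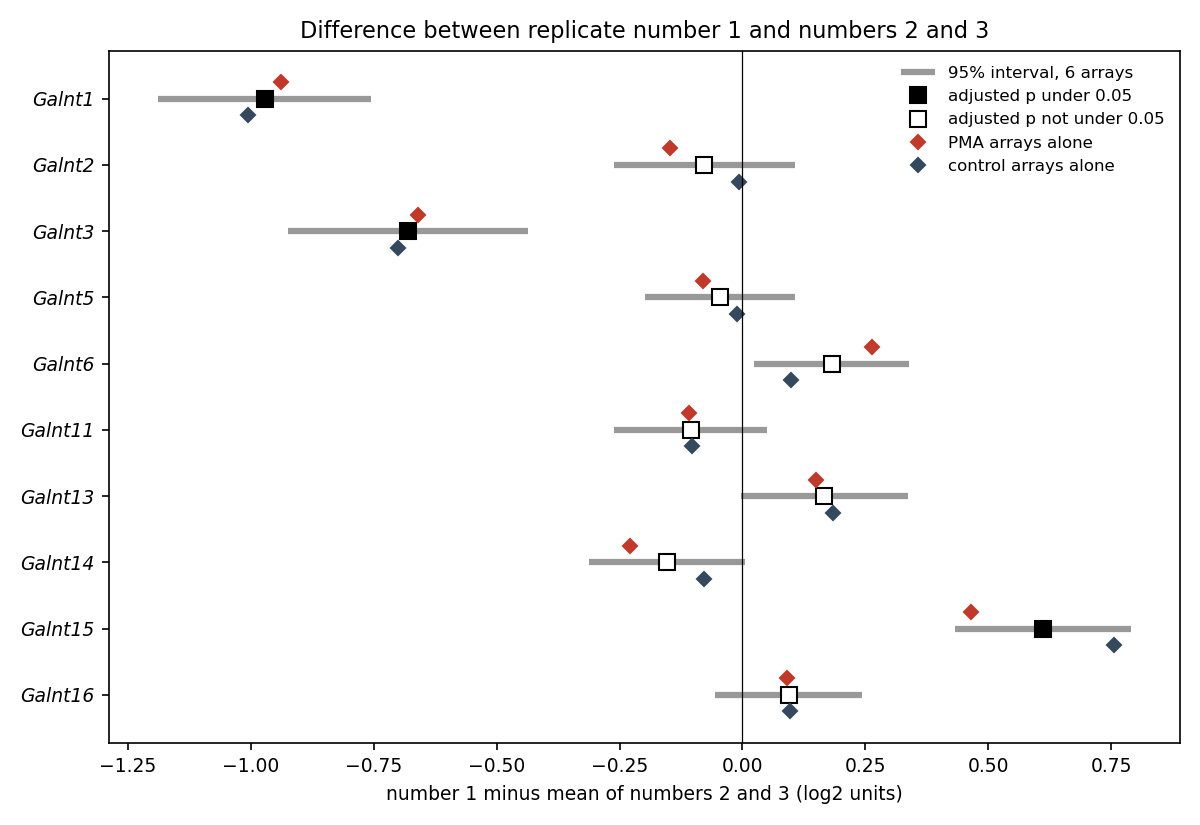
Number 1 minus the mean of numbers 2 and 3 (log2 units, x axis) for each gene over 6 arrays (squares, with 95% intervals, filled where the adjusted p is under 0.05), and the same difference in PMA arrays alone and control arrays alone (diamonds). Galnt1 and Galnt3 lie below 0 and Galnt15 above it in both groups.

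Whether the PMA difference depended on the number was tested as an interaction. By limma it passed for 0 of the 10 members, and for 0 of them before adjustment, against 0.0803% of all probe sets after adjustment and 5.62% before it. Galnt15 came closest, with a PMA difference 0.29 log2 units lower in number 1 than in numbers 2 and 3 (value -0.29, SE 0.13; unadjusted p = 0.0548, adjusted p = 0.743 by limma).

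Other genes shared the profiles of the 3 members that passed. Likeness was measured as the root mean square difference, over the 6 arrays, between profiles centred on their own means, among 899 other named genes. Closest to Galnt1 were Cmas, which activates sialic acid to its CMP form, at 0.063 log2 units, Gcnt1, the core 2 branching enzyme, at 0.078, and Slc35f5 at 0.097. Closest to Galnt3 were Ssr3, of the endoplasmic reticulum translocon, at 0.093, and the ligand Wnt7b at 0.114. Closest to Galnt15 were the Notch ligand Jag2 at 0.049, the growth factor Pdgfb at 0.053 and the collagen prolyl hydroxylase P3h1 at 0.054. These lists describe 6 arrays in which number 1 stood apart, a difference called in 41.7% of all probe sets. No member reached the 1 log2 unit first set for such a search, so the limit of 0.5 was chosen after the values were seen.

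The rest of the O-glycan pathway was compared in the same fits. In its 5 lists 0 genes passed for PMA by limma, and 0 had an unadjusted p under 0.05. The differences of largest size were 0.16 for Galnt10 and 0.13 for Galntl6 among the other GalNAc-transferases, and -0.17 for B3gnt3 and 0.068 for B3gnt6 among core enzymes. They were 0.21 (SE 0.50) for St3gal1 and 0.11 (SE 0.11) for St6galnac1 among O-glycan sialyltransferases. Among mucins they were 0.18 (SE 1.06) for Muc5ac and 0.14 (SE 0.36) for Cd164. Muc5ac had 6.45, 8.42 and 8.77 in PMA arrays, against 5.67, 8.76 and 8.67 in control arrays, so number 2 was lower with PMA. Among genes of UDP-GalNAc supply they were -0.10 for Galk2 and -0.056 for Slc35d1. Galntl6 and Galk2 had means below the lower quartile of every array. PMA and control values did not overlap for 1 of 9 other GalNAc-transferases, Galnt9 at -0.12, and 1 of 6 O-glycan sialyltransferases, St6galnac4 at 0.105. The other lists of the pathway had 0 such genes, and the share over all probe sets was 3.37%.

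Between number 1 and numbers 2 and 3, 4 of the 9 other GalNAc-transferases passed, all 4 higher in number 1. That share, 44.4%, is near the 41.7% of all probe sets called, of which 27.5% were higher and 14.1% lower. Galnt10, which prefers peptide already carrying GalNAc, averaged 8.50 in number 1, against 7.17 in the other arrays, and differed by 1.33 log2 units (SE 0.10). Galnt12 differed by 1.14 (SE 0.074), Galnt4 by 0.47 and Galntl5, whose mean was below every lower quartile, by 0.33. Of 6 core O-glycan enzymes, 4 were lower in number 1 and 0 higher, 66.7% called against the same 41.7%. They were B3gnt3, which extends core 1, at -1.40, Gcnt3, the mucin-type branching enzyme, at -1.33, Gcnt1 at -0.92 and C1galt1c1, the chaperone of the core 1 synthase, at -0.28. The second probe sets of Gcnt1 and Gcnt3 gave -1.12 and -1.17. C1galt1, the core 1 synthase, stood at -0.29 and did not pass (adjusted p = 0.0509 by limma).

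Of 6 sialyltransferases that act on O-glycans, 3 were higher in number 1 and 0 lower, 50% called against 41.7% of all probe sets. St6galnac2 differed by 2.82, St3gal1 by 1.17 and St3gal2 by 0.27, and St6galnac1, at 0.15, did not pass. Of 10 measured mucins, 3 were lower, Muc5ac at -2.59 (SE 0.17), Muc5b at -1.13 and Cd164 at -0.85, and 2 were higher, Ovgp1 at 0.74 and Muc1 at 0.33, again 50% called. Of 4 genes of UDP-GalNAc supply, the nucleotide sugar transporter Slc35d1, at -1.14, and Uap1, which makes the UDP sugar, at -0.50, were lower. Galk2, which phosphorylates GalNAc, was higher at 0.24, though its mean was below every lower quartile. The UDP-galactose transporter Slc35a2, at -0.18, did not pass.

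**Figure D4:**
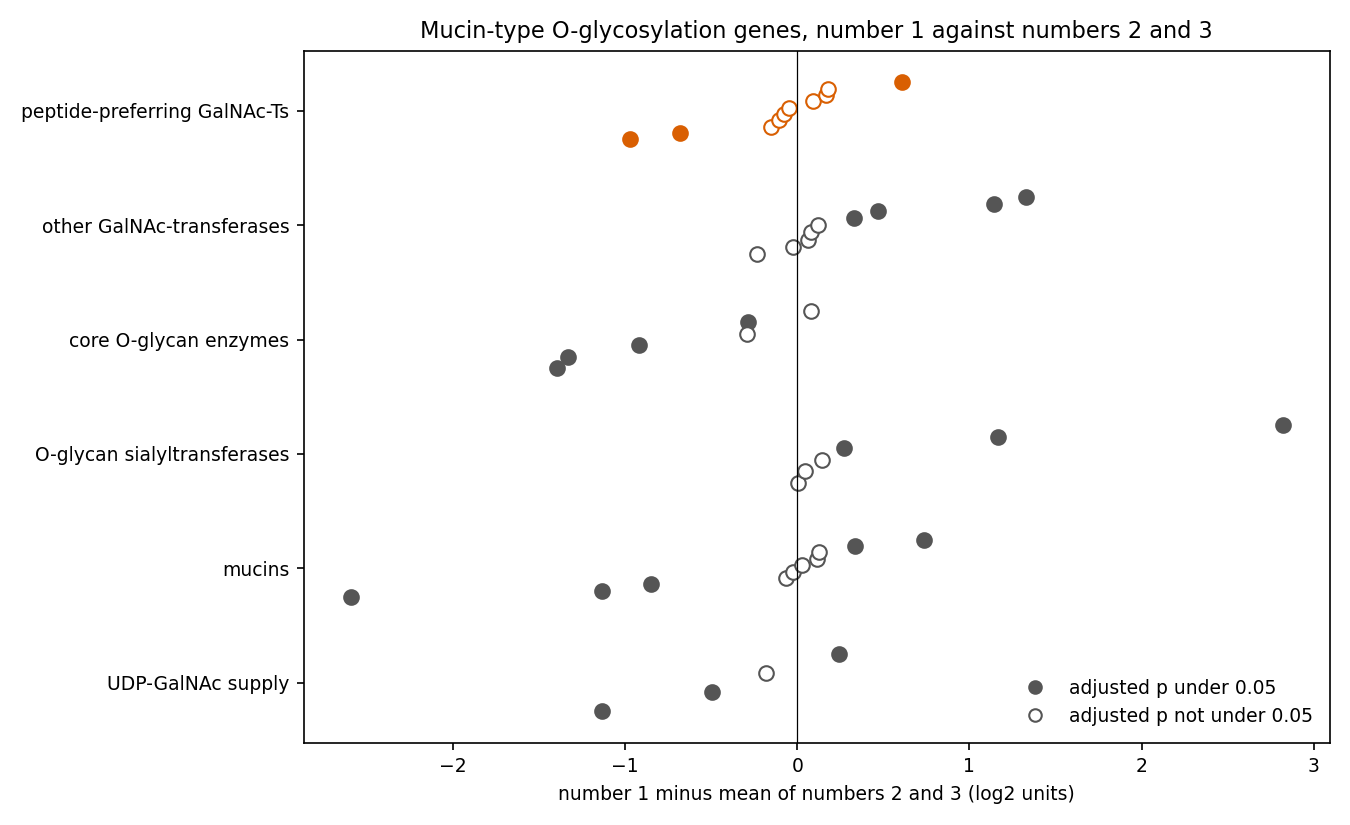
Number 1 minus the mean of numbers 2 and 3 (log2 units, x axis) for each measured gene of mucin-type O-glycosylation, by list and ordered by value within a list, with filled points where the adjusted p is under 0.05. The peptide-preferring enzymes (orange) run from -0.97 to 0.61, all called core enzymes lie below 0 and all called O-glycan sialyltransferases above it.

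Some markers of other cells also differed between the numbers. Of 8 measured leukocyte markers 2 passed, both lower in number 1, Ccr7 at -3.22 and Mrc1 at -2.74. That is 25% of the list, below the 41.7% of all probe sets. The mean level of the list ran from 4.98 to 5.18 in number 1 and from 5.80 to 5.85 in numbers 2 and 3. The other 6 leukocyte markers lay between -0.090 (Selplg) and 0.080 (Siglec1), and the median difference of the list was -0.0059, with 4 above and 4 below 0. Of 8 endothelial and fibroblast markers 6 passed (75%), 2 higher and 4 lower, with Cspg4 at 2.90 and Dcn at -2.31, and the mean level of the list ran from 6.06 to 6.16 in number 1 and from 6.34 to 6.57 in numbers 2 and 3. Of the 2 lung epithelial markers Sftpa1 was higher in number 1, at 0.52. RMA gives no level of 0, so no marker could be called absent, and the part of these differences in the results above was not tested.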

How the data were processed

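Log2 values of 1246 probe sets on 6 arrays were used as deposited. Per the submitters' processing notes the authors made them with RMA, which corrects background, quantile-normalizes arrays and summarises probes, so a shift of all transcripts one way would not be seen. Per the labels' protocols, biotinylated cRNA came from 0.5 µg of Trizol-extracted total RNA. The array's name, its filters and RMA's version were not given in the sources used here. Probe sets were named through the RefSeq accession in their ID, matched without versions to RefSeq genes of GRCm38.p6 (963 of 1246 named). For genes with several, the probe set of highest mean was used.

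Comparisons were fitted on all probe sets with limma 3.58.1 in R 4.3.3 (lmFit, eBayes), with Benjamini-Hochberg adjustment at 0.05. SE is the moderated standard error. An exact permutation test of 3 against 3 arrays cannot go below 0.1. The members and lists were chosen with earlier results of these data known, among them the distance of number 1 from the rest. Named were every member, in each pathway list the 4 genes of largest number 1 difference and the 2 of largest PMA difference, and further genes, the cell type markers included, picked after their values were seen. Deviations of same-numbered PMA and control arrays from their group means correlated across probe sets at 0.956, 0.815 and 0.912. A shift of number 1 alone raises all of these values, since the group means include number 1. With number 1 set aside, PMA 2 minus PMA 3 and control 2 minus control 3 correlated at 0.041, so numbers 2 and 3 showed no pairing of their own. The labels state no pairing, and a blocked fit was run beside the unblocked fit as an alternative. The PMA, blocked and number 1 fits were tested on simulated data, and the interaction fit was not. The simulated noise was drawn independently for each array, so a spread shared by same-numbered arrays was not covered. The alternatives were other normalizations, a filter on low values, an intensity trend, other terms and leaving out arrays. The number of arrays limits the precision.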

Additional observations from a re-analysis of the deposited data

How the results depend on the processing

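No member passed for PMA in any alternative that tested it, with a smallest adjusted p of 0.964 by limma. Not passing does not by itself show that a gene was unchanged. With the replicate number as a block, 0 members passed for PMA, so the block changed no PMA call of a member. For number 1 the blocked fit called 3 members and 518 probe sets, against 519 probe sets without the block. The number 1 difference lies between blocks, so the blocked fit still judged it by the spread within replicate numbers. That fit left the number 1 difference of every member unchanged and is no check of the number 1 result. The signs of the PMA differences were not stable: 20 of 137 member values changed sign. The 137 include alternatives that cannot move a difference, such as the block, the intensity trend and the filter on low values. With both number 1 arrays left out, Galnt5 stood at 0.013, Galnt6 at -0.029 and Galnt15 at 0.076. Leaving out 1 array gave ranges of -0.42 to 0.22 for Galnt1, -0.049 to 0.084 for Galnt2, -0.19 to 0.26 for Galnt3, -0.035 to 0.019 for Galnt5, -0.062 to 0.087 for Galnt6, -0.016 to 0.11 for Galnt13, -0.025 to 0.10 for Galnt14 and -0.18 to 0.23 for Galnt15. Galnt11, from -0.13 to -0.048, and Galnt16, from 0.029 to 0.092, kept their signs. Leaving out 1 array leaves the numbers unequal between the groups.

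In the number 1 comparison Galnt1 ran from -1.13 to -0.90, Galnt3 from -0.79 to -0.59 and Galnt15 from 0.47 to 0.76 over all alternatives in which they were tested, with highest adjusted p of 0.00214, 0.0209 and 0.00571 by limma. Those p-values come from the fit without control 1, where number 1 is a single array that is assumed to vary like the others, as it is in the fits without PMA 1, within PMA arrays and within control arrays. Leaving out probe sets with a mean below 4.39, the lower quartile of the means, kept 7 members, without Galnt3, Galnt5 and Galnt13. The count of members was 3 to 4 with 1 array left out, Galnt13 joining without PMA 2, and 4 with no PMA term, Galnt6 joining. It was 5 after repeated quantile normalization, and the cause was not tested. Probe sets called for the interaction, 1 in the first fit, were 0 after repeated quantile normalization or with an intensity trend and 2 to 18 with 1 array left out, an alternative chosen after seeing the data, while members called stayed at 0. The number 1 arrays could not be left out there. Each member has 1 probe set, so averaging probe sets changed no member's value. Signal over background is unknown, which limits what can be said of Galnt3, Galnt5 and Galnt13.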
